A study of Mus musculus with 59 samples.

Results

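The Eμ enhancer insertion was compared with the wild-type Igh locus by VDJ-seq of pro-B cells. Of 48 VDJ-seq libraries among the 59 samples of the series, 9 entered the comparison, namely the 3 libraries labelled Igh EmG/EmG and the 6 Igh +/+ libraries with neighbouring experiment numbers. The EmG allele is an Igh locus in which an 890-kb stretch of the distal VH gene region was deleted (the Δ890 allele) and in which the mouse Eμ enhancer was then placed at the deletion point in embryonic stem cells by Cre-mediated exchange. The insert carried the matrix attachment regions on both sides of Eμ and its Iμ exon, which was joined to a Gfp cDNA with polyadenylation sites. Both Igh copies of the Igh EmG/EmG mice carried the deletion together with the insert, whereas the Igh +/+ mice carried neither, so that effects of the insert and of the deletion cannot be told apart in this comparison alone. For this reason, the values of 3 libraries each of Igh Δ890/Δ890 (the deletion with no insert), Igh P4StopG/P4StopG (the PAIR4 element with a transcription stop and Gfp at the same deletion point) and Igh P4inv/P4inv (the PAIR4 element in inverted orientation at that point) are given at the end. Pro-B cells had been sorted ex vivo from bone marrow of 1 mouse per library, the strains had been backcrossed to C57BL/6, and the ages of the mice were not given in the sources used here. As genomic DNA was sequenced, the pro-B cell label could not be checked against marker genes.

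During B cell development, the Igh locus is assembled in steps. DH segments are first joined to JH segments on both alleles, and a VH gene is then joined to the DJH segment in pro-B cells. The Eμ enhancer normally lies between the JH segments and the Cμ exons at the 3′ end of the locus, where it opens the chromatin of the DH and JH segments for the RAG recombinase. VH genes far from the DH segments depend on contraction of the locus to come next to the DJH segment. Loop extrusion across the locus brings VH genes to the RAG-bound recombination center, and the study describes it as essential for all of them.

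The place of the insert can be read from the genotyping primers that the study lists for the EmG allele, which matched chromosome 12 of the mm9 genome once each. The following sequences show, in this order, the primer flanking the deletion point on its downstream (DH-proximal) side, the primer within the deleted stretch that detects the wild-type allele, and the primer within Eμ that detects the insert.
Downstream flank, chr12:116237049-116237069, plus strand: ctgaggatcactgtcacacct
Deleted stretch, chr12:116237737-116237757, minus strand: agaggaaaatgcaggccaaga
Eμ, chr12:114666117-114666141, plus strand: tccatacacatacttctgtgttcct
The native site of the Eμ primer lay between the Ighm gene (chr12:114659078-114660941) and the JH segment nearest to it (chr12:114666725-114666778). On the mm9 map, the native site and the flank primer were 1.57 Mb apart. In the intact locus, the most distal tested gene, VH1-85, lay 1.00 Mb upstream of the flank primer, a distance that the 890-kb deletion shortened in the EmG allele.

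The deposited value of a VH gene, called its usage here, was the percentage of all unique VDJH and DJH joints of a library in which this gene was used, so that the values of a library summed to its percentage of VDJH joints. How many joints stand behind a percentage was not given and was not inferred from the values, so that no depth or counting error is stated. Each library listed 241 VH genes of 16 families, of which 183 have a position in the locus and 48 were at 0 in all 9 libraries. By position, 32 genes were assigned to the DH-proximal part, 40 to the middle part, 34 to the distal part up to VH1-26, 21 to the downstream flank of the insert (VH1-27 to VH1-47), 49 to the deleted stretch and 7 to the region upstream of the insert (VH1-80 to VH1-86), and 58 genes could not be placed. Sums, scales and tests over the genes outside the deletion also include these 58 genes, whose place relative to the deletion is unknown.

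The third Igh +/+ library stood apart from the other 5. VDJH joints made up 78.8% of its joints and 46.5% to 56.8% in the other Igh +/+ libraries, and its distal VH genes were used more often, whereas its usage of VH5-2, the VH gene used most in the Igh +/+ libraries, was the lowest of the 6 (1.58%). The cause was not tested. Results are therefore given with the 6 Igh +/+ libraries, and the main ones again without replicate 3. Errors are standard deviations between libraries unless stated otherwise.

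Igh EmG/EmG pro-B cells, which carry the deletion and the Eμ insert, had fewer VDJH joints than wild-type pro-B cells. In the Igh +/+ libraries, VDJH joints ranged from 46.5% to 78.8% of all joints, with a median of 49.5%. The 3 Igh EmG/EmG libraries held 35.1%, 38.3% and 37.3%, below every Igh +/+ library. The means were 54.7% ± 12.5 (SD, n = 6) and 36.9% ± 1.62 (SD, n = 3), and the difference of -17.8 percentage points was significant (two-sided exact permutation test, p = 0.0238, which is the lowest that 3 against 6 libraries can give). Without replicate 3, the difference was -12.9 percentage points (p = 0.0357, the smallest for 3 against 5). Of the other genotypes with the deletion, Igh Δ890/Δ890 held 27.4% to 31.6% VDJH joints. The 3 Igh +/+ libraries with experiment numbers next to it, its own Igh +/+ libraries below, held 43.3% to 45.5%. Igh P4StopG/P4StopG held 29.3% to 38.3% and Igh P4inv/P4inv 39.0% to 46.7%. These genotypes were not tested against each other for VDJH joints. The deleted VH genes held 10.1% to 23.2% of the joints in the Igh +/+ libraries. The deleted VH genes were then left out of the sum, whereas the 58 genes without a position were kept. In this sum the Igh +/+ libraries ranged from 35.7% to 55.6% (median 38.2%) and the Igh EmG/EmG libraries held 34.9%, 38.0% and 37.0%. The groups overlapped, and the difference of -4.48 percentage points did not pass the exact permutation test (p = 0.357, and -1.58 with p = 0.536 without replicate 3). The summed usage of the 49 deleted VH genes in the Igh EmG/EmG libraries was 0.203%, 0.283% and 0.271%. This remainder was spread over 19 genes, led by VH1-64 with a mean of 0.0857%. The other genotypes that carried the deletion likewise listed 0.121% to 0.248% for these genes.

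Along the locus, usage was lower on the downstream flank of the insert in every Igh EmG/EmG library, whereas upstream of the insert the Igh EmG/EmG libraries were above the median of the Igh +/+ libraries. In the DH-proximal part, the summed usage was 10.1% to 10.7% (median 10.3%) in the Igh +/+ libraries and 9.14%, 9.89% and 8.99% in the Igh EmG/EmG libraries. The 2 groups did not overlap, with an EmG mean of 0.898 of the wild-type mean (exact permutation test, p = 0.0238, adjusted p = 0.0595 over the 5 regions outside the deletion). In the middle part, the values were 11.2% to 17.8% (median 12.3%) and 12.2%, 12.7% and 12.4% (adjusted p = 0.833 by the same exact test). The distal part up to VH1-26 was used at 8.83% to 17.2% (median 9.86%) and at 8.63%, 9.85% and 9.96% (adjusted p = 0.833, exact test). On the downstream flank, the Igh +/+ libraries had 1.84% to 3.43% (median 2.01%) and the Igh EmG/EmG libraries 1.43%, 1.44% and 1.37%, again without overlap. The mean of this flank was 0.629 of the wild-type mean, and 0.704 of it without replicate 3 (adjusted p = 0.0595 and 0.0893 by exact tests). Upstream of the insert, the VH genes summed to 1.54% to 4.73% (median 1.96%) in Igh +/+ and 2.14%, 2.76% and 2.85% in Igh EmG/EmG. These groups overlapped (adjusted p = 0.833, exact test), and without replicate 3 the EmG mean was 1.34 times the wild-type mean (exact test, p = 0.0714, adjusted p = 0.119). No region passed an adjusted p of 0.05. The 3 Igh +/+ libraries set beside Igh Δ890/Δ890 held 9.59% to 10.9% in the DH-proximal part, which overlapped with Igh EmG/EmG. On the downstream flank they held 1.69% to 1.89%, which did not. The VH genes that could not be placed summed to 1.57% to 2.16% and to 1.39% to 1.45%.

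**Figure D1:**
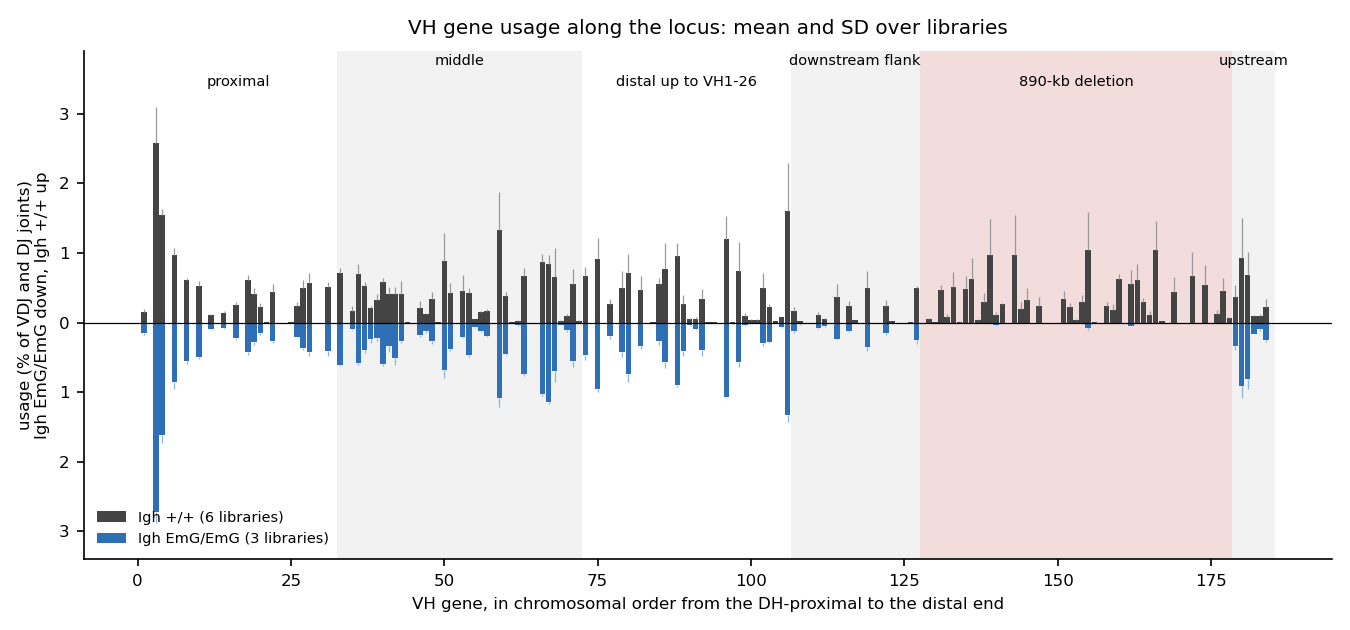
Usage of each placed VH gene (percentage of all VDJH and DJH joints), with Igh +/+ upward (mean and SD of 6 libraries) and Igh EmG/EmG downward (mean and SD of 3 libraries), plotted in chromosomal order from the DH-proximal end. The deleted stretch held 10.1% to 23.2% of the joints in Igh +/+ and at most 0.283% in Igh EmG/EmG, while the genes upstream of it kept a usage of up to 1.06% in an Igh EmG/EmG library.

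The 6 VH genes upstream of the insert, VH1-80 to VH1-85, all belong to the VH1 (J558) family, the largest family of the locus. VH1-83 (chr12:115963817-115964109, mm10) was the only VH gene that was called higher in Igh EmG/EmG with all 6 Igh +/+ libraries. Its usage was 0.0623% to 0.128% (median 0.0846%) in the Igh +/+ libraries and 0.164%, 0.151% and 0.165% in the Igh EmG/EmG libraries. Every Igh EmG/EmG library was thus above every Igh +/+ library, and the difference was 0.79 ± 0.20 (SE) on the log2(usage + 0.01) scale (limma, adjusted p = 0.0259). In the same fit, 0.909% of the 110 VH genes tested were called higher, that is 1 gene, or 1.14% of the 88 with a position. Without replicate 3, in which VH1-83 was used least, the difference was 0.70, and the adjusted p in that limma fit was 0.00135. The call was lost when Igh +/+ replicate 4 or 6 or any of the 3 Igh EmG/EmG libraries was left out (limma, adjusted p = 0.0530 to 0.111, differences of 0.75 to 0.83).

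The other 5 upstream genes overlapped with the Igh +/+ libraries. VH1-85, the most distal gene of the 6, was used at 0.149% to 0.458% (median 0.190%) in Igh +/+ and at 0.237%, 0.276% and 0.261% in Igh EmG/EmG. Only Igh +/+ replicate 3 was above these 3 values. VH1-82 was used at 0.449% to 1.33% (median 0.590%) and at 0.645%, 0.893% and 0.907%. VH1-81 was used at 0.592% to 2.05% (median 0.699%) and at 0.745%, 0.954% and 1.06%. In both genes replicate 3 was the highest of all 9 libraries, and 2 Igh EmG/EmG libraries were above each of the other Igh +/+ libraries. VH1-80, the gene next to the deletion point, was used at 0.190% to 0.689% (median 0.315%) and at 0.285%, 0.391% and 0.350%. VH1-84 was used at 0.0604% to 0.144% (median 0.0883%) and at 0.0593%, 0.0976% and 0.114%. For these last 2 genes the libraries of the 2 genotypes were intermingled. With 6 Igh +/+ libraries, 1 of the 6 genes was called higher and 5 of 6 differences were above 0, with a median of 0.20 on the log2 scale beside a median of -0.21 over all genes tested. Without replicate 3, VH1-81, VH1-82, VH1-83 and VH1-85 were called higher, with a median over the 6 genes of 0.44 beside -0.13 over all 107 genes tested. In that fit 8.41% of the genes were called higher. In it, the spread of a gene was set by the trend of the spreads over usage alone, with no weight on the gene's own spread, and its adjusted p-values rest on this assumption.

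As a single value, the relative usage of the 6 upstream genes was calculated, for which each gene's usage was divided by its Igh +/+ mean and the 6 quotients were averaged. It ranged from 0.689 to 1.72 in the Igh +/+ libraries and was 1.00, 1.22 and 1.27 in the Igh EmG/EmG libraries. The EmG mean of 1.17 ± 0.142 (SD, n = 3) did not differ from 1 beyond the spread of the Igh +/+ libraries (exact permutation test, p = 0.524). Without replicate 3 it was 1.35 times the mean of the remaining 5 libraries, which also did not pass the exact test (p = 0.0714). As a share of the VDJH joints outside the deletion, the relative usage was higher by 0.331 in Igh EmG/EmG, and this difference passed the exact test (p = 0.0476).

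**Figure D2:**
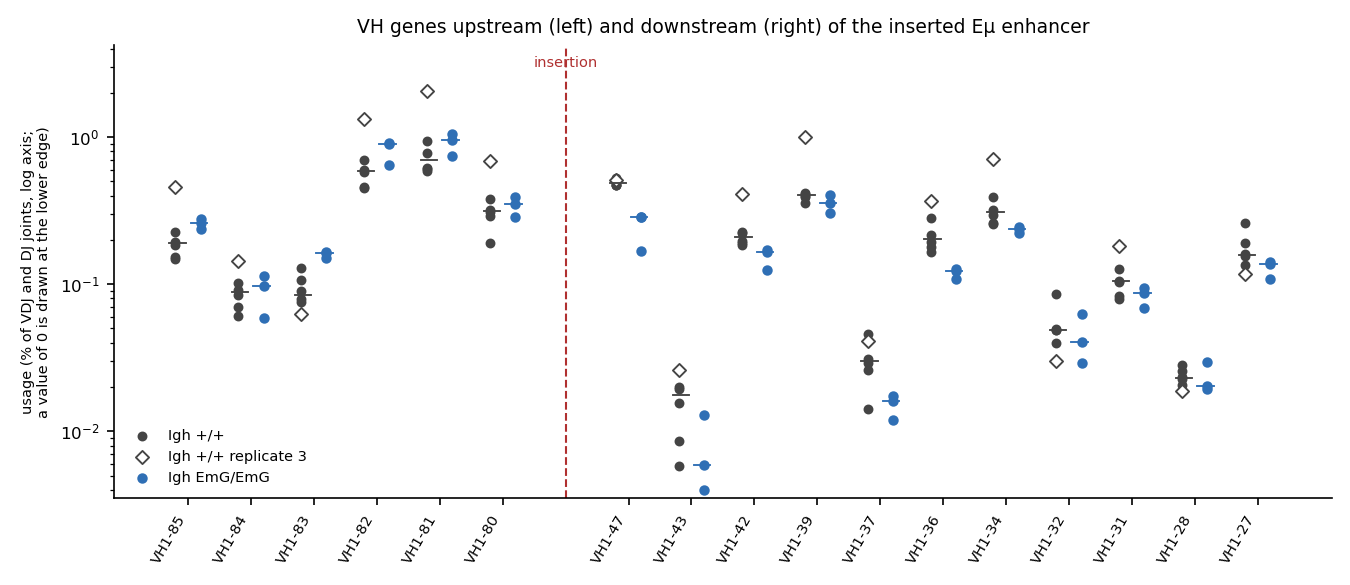
Usage (percentage of joints, log axis) of the 6 VH genes upstream and the 11 VH genes downstream of the insert in each library, with a short line at the median of a genotype and Igh +/+ replicate 3 as an open diamond. VH1-83 is above, and VH1-47 and VH1-36 are below, every Igh +/+ library in all 3 Igh EmG/EmG libraries.

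On the DH-proximal side of the insert, the 11 VH1 genes from VH1-47 to VH1-27 that passed the filter on low usage all had differences below 0. VH1-47 (chr12:114991108-114991401, mm10), the downstream gene closest to the insert, was used at 0.473% to 0.530% (median 0.488%) in the Igh +/+ libraries and at 0.288%, 0.284% and 0.167% in the Igh EmG/EmG libraries. It fell by 1.01 ± 0.19 (SE) on the log2(usage + 0.01) scale (limma, adjusted p = 0.00373). Its Igh +/+ values lay close together, replicate 3 with 0.512% included, and it was called whichever library was left out, with a difference of -1.004 without replicate 3. VH1-36 (chr12:114879888-114880181) was used at 0.165% to 0.370% (median 0.204%) and at 0.128%, 0.108% and 0.122%, and fell by 0.86 ± 0.24 (SE, limma, adjusted p = 0.0313). This call was lost when Igh +/+ replicate 4 or 5 or any of the Igh EmG/EmG libraries was left out (limma, adjusted p = 0.0530 to 0.134), and without replicate 3 the difference was -0.73. VH1-42 and VH1-34 did not overlap either, with values of 0.184% to 0.411% against 0.125% to 0.170% for VH1-42 and 0.255% to 0.713% against 0.222% to 0.247% for VH1-34, but were not called (limma, adjusted p = 0.139 and 0.193). VH1-37 was used at 0.0142% to 0.0457% and at 0.0119% to 0.0174% (adjusted p = 0.0972) and was called lower without replicate 3 (limma, -0.60). VH1-39, at 0.357% to 0.999% and 0.303% to 0.402%, and VH1-31, at 0.0793% to 0.183% and 0.0692% to 0.0947%, overlapped. The differences of VH1-28 and VH1-32 were small, at -0.02 and -0.16 on the log2 scale, and changed sign with single libraries left out. In all, 2 of the 11 genes were called lower, whereas 10% of the genes tested, and 6.82% of the 88 tested genes with a position, were called lower. Of the 11 genes, VH1-43 passed the filter through the Igh +/+ libraries only (means of 0.0159% and 0.00627%). The median of the 11 genes was -0.55 beside -0.21 over all genes tested. As a percentage of all VDJH joints, 5 of the 11 differences were above 0, and as a percentage of those outside the deletion 1 was. The corresponding values without replicate 3 were 3 genes called lower, a background of 18.7% and a median of -0.40.

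The relative usage of the 6 downstream genes that the study used as counterpart of the upstream genes (VH1-47, VH1-43, VH1-42, VH1-39, VH1-37 and VH1-36) was 0.758 to 1.55 in the Igh +/+ libraries and 0.531, 0.487 and 0.603 in the Igh EmG/EmG libraries. These did not overlap, and the EmG mean of 0.540 ± 0.0583 (SD, n = 3) was lower (exact permutation test, p = 0.0238, and 0.615 with p = 0.0357 without replicate 3). VH1-43, which passed the filter through the Igh +/+ libraries only (means of 0.0159% and 0.00627%), weighs as much as each other gene here. By the summed usage of the 6 genes, the EmG mean was 0.592 of the wild-type mean, and 0.667 of it without replicate 3. The log2 ratio of the summed usage of the 6 upstream to the 6 downstream genes was also compared, in which the total number of joints of a library cancels. It ranged from 0.24 to 1.00 in Igh +/+, with a mean of 0.58 ± 0.28 (SD, n = 6), and was 1.24, 1.56 and 1.75 in Igh EmG/EmG. The ratio was thus higher in Igh EmG/EmG by 0.93 on the log2 scale (exact permutation test, p = 0.0238) and by 1.02 without replicate 3 (exact permutation test, p = 0.0357). Replicate 3, with the most VDJH joints, had the highest ratio of the 6 Igh +/+ libraries, and the 3 Igh +/+ libraries with 46.5% to 47.0% VDJH joints had the lowest ratios (0.24, 0.39 and 0.45). The part of the VDJH percentage in the difference between the genotypes was not tested. The ratio was 1.08 to 1.49 in Igh P4StopG/P4StopG and 1.03 to 1.53 in Igh P4inv/P4inv, which also lie above every Igh +/+ library and overlap with Igh EmG/EmG. In Igh Δ890/Δ890 it was 0.41 to 0.48, beside -0.03 to 0.34 in its own Igh +/+ libraries. These genotypes were not tested for the ratio.

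A VH gene is cut by RAG at the recombination signal that follows its coding end, a heptamer and a nonamer separated by a spacer. The signals are shown for the genes on both flanks of the insert, whose usage is at issue here. They were read from the mm9 genome on the minus strand for the genes that the mm9 annotation names by symbol, with the part best matching the heptamer CACAGTG and the nonamer ACAAAAACC at a spacer of 22 to 24 bases in capitals.
VH1-85, chr12:117238201-117238238: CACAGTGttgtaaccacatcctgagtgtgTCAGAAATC
VH1-84, chr12:117218875-117218912: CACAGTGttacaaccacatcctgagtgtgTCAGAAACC
VH1-83, chr12:117201990-117202027: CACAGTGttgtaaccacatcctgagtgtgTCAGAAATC
VH1-43, chr12:116184123-116184160: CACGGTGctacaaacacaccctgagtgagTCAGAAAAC
VH1-42, chr12:116175286-116175323: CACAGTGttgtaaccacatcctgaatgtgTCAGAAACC
Upstream, VH1-83 and VH1-85 had the same signal, although VH1-83 was used less than VH1-85 in every Igh +/+ and Igh EmG/EmG library. Downstream, the heptamer of VH1-43 had 6 matches of 7 and that of VH1-42 had 7, and VH1-43 was used at no more than 0.0262% in any of the 9 libraries. The full heptamer was found in 23 of the 37 genes that the mm9 annotation and the libraries both name, and the best match was poorer in the others. These matches are a description of the sequence and no measure of its use.

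Across the 16 VH families, summed without the deleted genes but with the unplaced ones, 5 did not overlap between the 6 Igh +/+ and the 3 Igh EmG/EmG libraries. VH15, of which VH15-2 makes up the usage, was used at 0.453% to 0.718% (median 0.530%) in the Igh +/+ libraries and at 0.234%, 0.328% and 0.241% in the Igh EmG/EmG libraries. The EmG mean was 0.490 of the wild-type mean. VH14 was used at 0.980% to 2.48% (median 1.14%) and at 0.697%, 0.835% and 0.820%, a mean of 0.579 of wild type. VH12, by contrast, was used at 0.722% to 1.10% (median 1.00%) and at 1.30%, 1.29% and 1.20%, which is 1.30 times the wild-type mean. The 2 families of the DH-proximal part were slightly lower in each Igh EmG/EmG library, with 4.40% to 5.02% against 4.15%, 4.17% and 3.91% for VH2 and 6.53% to 6.82% against 5.81%, 6.50% and 5.85% for VH5. Each of these 5 differences had the smallest p that the exact permutation test allows (p = 0.0238), but none passed 0.05 after adjustment over the 16 families (adjusted p = 0.0762). The 3 Igh +/+ libraries set beside Igh Δ890/Δ890 overlapped with Igh EmG/EmG for VH12 (1.11% to 1.27%), VH14 (0.765% to 0.863%) and VH5 (6.15% to 6.97%). They did not overlap with it for VH15 (0.422% to 0.530%) and VH2 (4.19% to 4.83%). Without replicate 3, VH15, VH14 and VH12 were at 0.523, 0.694 and 1.23 of the wild-type mean and again did not overlap (exact permutation test, adjusted p = 0.0952). VH8 was used at 0.440% to 0.815% and at 0.418% to 0.543% (exact permutation test, p = 0.0476, adjusted p = 0.127), where replicate 3 was the lowest Igh +/+ library, and without it the genotypes did not overlap.

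The other families overlapped. VH1, the largest family, was used at 10.8% to 22.4% (median 11.8%) in Igh +/+ and at 10.5%, 12.1% and 12.3% in Igh EmG/EmG. VH3, VH4, VH7 and VH9 had EmG means of 0.861 to 0.919 of wild type, VH6 and VH10 of 1.04, VH13 of 1.18 and VH11 of 1.21. Without replicate 3, the mean of VH6 was 1.25 times and that of VH10 1.20 times wild type, and neither passed the exact test (p = 0.179 and 0.107). The only VH16 gene was listed at 0 in 1 library of each genotype and at no more than 0.0117% elsewhere.

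**Figure D3:**
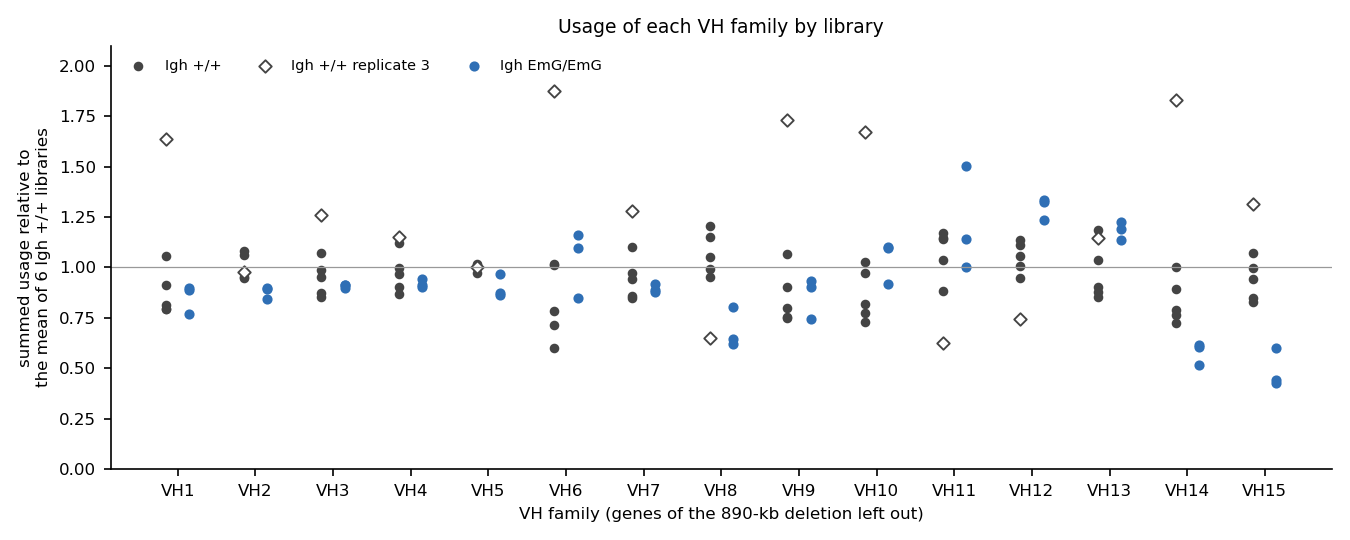
Usage of each VH family per library, summed over the genes outside the deletion and divided by the mean of the 6 Igh +/+ libraries, for the 15 families above the filter on low usage. VH14 and VH15 lie below and VH12 lies above all Igh +/+ libraries in the 3 Igh EmG/EmG libraries, and Igh +/+ replicate 3 (open diamonds) is the highest or lowest wild-type library of most families.

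Single genes of these families were tested with limma. VH15-2 (chr12:114564578-114564874, mm10), a gene of the distal part far from the insert, had the same values as its family and fell by 1.00 ± 0.19 (SE) on the log2(usage + 0.01) scale (limma, adjusted p = 0.00392), and the difference was -0.92 without replicate 3. It was called whichever library was left out. Its signal is shown because it was the called gene with the smallest adjusted p among the placed genes outside the flanks of the insert.
VH15-2, chr12:115802750-115802788: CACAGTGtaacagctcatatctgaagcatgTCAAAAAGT
VH14-4, the VH14 gene used most, was used at 0.290% to 0.916% and at 0.205%, 0.210% and 0.222% (limma, -0.93 ± 0.30 (SE), adjusted p = 0.0622). The 4 VH14 genes tested were all below 0, between -0.93 and -0.49, and none was called with 6 Igh +/+ libraries, whereas 2 were called lower without replicate 3, in a fit in which 18.7% of the genes were called lower. VH12-3 was used at 0.645% to 0.952% (median 0.879%) and at 1.17%, 1.14% and 1.10%, above every Igh +/+ library, with a difference of 0.43 ± 0.16 (SE, limma, adjusted p = 0.0972), and it was called without replicate 3. Of the most used gene of the other families, VH2-2 and VH5-2 at the DH-proximal end differed by 0.07 and 0.11 on the log2 scale, VH1-26 by -0.18, VH3-6 and VH7-1 by -0.22 each, VH4-1 and VH9-3 by -0.25 and -0.27, VH8-2 by -0.50, VH10-1 by 0.10, VH6-3 and VH13-2 by 0.25 each and VH11-2 by 0.33, and none of these was called by limma. Of these genes, VH6-3 (0.52) and VH8-2 (-0.62) were called without replicate 3.

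Over the whole locus, 12 of 110 VH genes were called between the genotypes (limma, adjusted p under 0.05), which is 10.9%, with 33 genes at an unadjusted p under 0.05. Of these 12, 5 have no position and averaged less than the filter of 0.01% in Igh EmG/EmG, so that they were tested only because of their usage in Igh +/+. Among the 88 tested genes with a position, 7 (7.95%) were called, 1 higher and 6 lower. The 7 called genes with a position were VH1-83 on the upstream flank, VH1-47 and VH1-36 on the downstream flank, VH15-2, and 3 little used genes. VH1-21-1 was used at 0.0234% to 0.0512% and at 0.0148%, 0.0232% and 0.00643% (-0.97 ± 0.24 (SE), limma, adjusted p = 0.0253), and its neighbour VH1-21 at 0.0243% to 0.0520% and at 0.0148%, 0.0218% and 0.0193% (-0.75 ± 0.20 (SE), limma, adjusted p = 0.0283). VH1-21-1 lost its call without Igh EmG/EmG replicate 1 or 3 and VH1-21 without any Igh EmG/EmG library or Igh +/+ replicate 4, 5 or 6 (limma, adjusted p = 0.0530 to 0.151). These 2 genes did not overlap between the genotypes, whereas VH5-9, chosen after its values were seen, was called lower with overlapping libraries (0.0943% to 0.171% against 0.0595% to 0.0957%, -0.73, limma, adjusted p = 0.0437). VH5-9 lost its call without Igh +/+ replicate 1, 4, 5 or 6 or Igh EmG/EmG replicate 1 or 3 (limma, adjusted p = 0.0530 to 0.198). The groups did not overlap for 3 higher genes (2.73% of those tested) and 20 lower genes (18.2%). Without Igh EmG/EmG replicate 1 or 3, 6 genes were called. Without Igh +/+ replicate 3, 29 of 107 genes (27.1%) were called, 9 higher and 20 lower. Of the 12 genes called with 6 Igh +/+ libraries, 9 were called again and the other 3 no longer passed the filter on low usage. The genes called higher in that fit were not confined to the flank of the insert, as VH1-12, VH1-14 and VH1-15 in the distal part and VH6-3 and VH12-3 in the middle part were among them. VH1-12 was used at 0.178% to 0.263% in these 5 Igh +/+ libraries, at 0.529% in replicate 3, and at 0.339%, 0.467% and 0.432% in the Igh EmG/EmG libraries.

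The remaining 5 called genes, VH1S5, VH1S56, VH1S126, VH1S40 and VH1S15, have no position in the locus. Having passed the filter through the Igh +/+ libraries alone, they could only be lower in Igh EmG/EmG, and their calls are no more than a description. They were used in every Igh +/+ library, VH1S5 at 0.0574% to 0.0763% and the other 4 at 0.00434% to 0.0524%. In the Igh EmG/EmG libraries they were listed at 0, except for VH1S15 with 0.0029% in replicate 2. All 5 genes were also listed at 0 in every Igh P4StopG/P4StopG, Igh P4inv/P4inv and Igh Δ890/Δ890 library, genotypes that carry the deletion without Eμ at its site. VH1S15 was no longer called without Igh EmG/EmG replicate 1 or 3 (limma, adjusted p = 0.126 and 0.111).

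**Figure D4:**
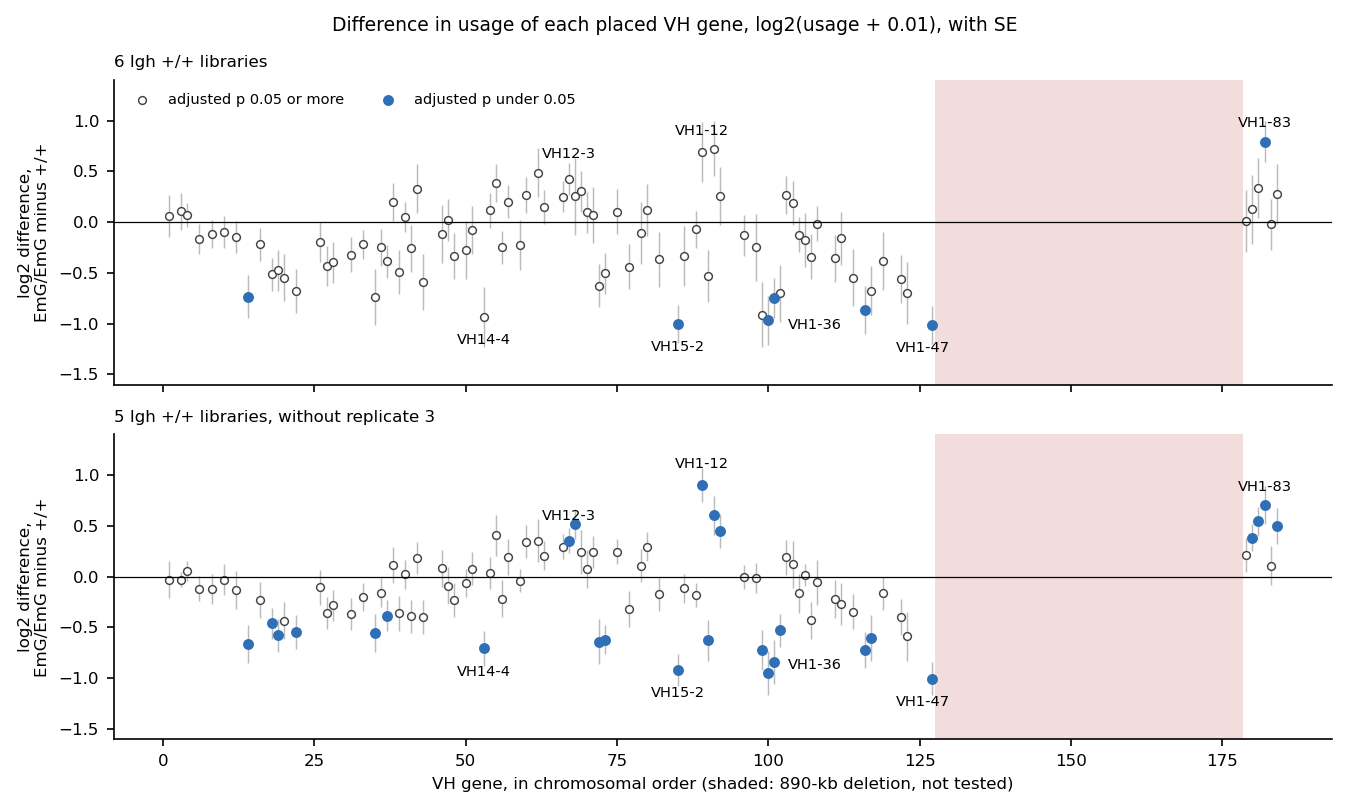
Difference of each tested and placed VH gene between Igh EmG/EmG and Igh +/+ on the log2(usage + 0.01) scale, with its standard error, in chromosomal order. With 6 Igh +/+ libraries (upper panel) 7 placed genes are called (filled), and without replicate 3 (lower panel) 27, of which 4 lie upstream of the shaded deletion.

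The scale mattered for the direction of the whole profile. When usage was taken as a percentage of all VDJH joints, of which the deleted genes are a large part in Igh +/+ and a small remainder in Igh EmG/EmG, 32 genes (29.1%) were called, 26 higher (23.6%) and 6 lower (5.45%). As a percentage of the VDJH joints outside the deletion, 15 genes (13.6%) were called, 3 higher and 12 lower. The median of all genes moved from -0.21 to 0.30 and -0.08 on the log2 scale, respectively. Relative to that median, the 6 upstream genes were at 0.41, 0.44 and 0.43 and the 11 downstream genes at -0.34, -0.32 and -0.33 on the deposited scale, of all VDJH joints and of those outside the deletion. VH1-83 was higher on all 3 scales. VH1-47 was lower on all 3 scales but was not called as a percentage of all VDJH joints (-0.50, limma, adjusted p = 0.0864). The diversity of the VH genes outside the deletion, given as the effective number of genes (the exponential of the Shannon entropy), was 65.1 to 69.9 in the Igh +/+ libraries and 64.4, 63.4 and 64.3 in the Igh EmG/EmG libraries. It was lower in Igh EmG/EmG by 3.68 genes (exact permutation test, p = 0.0238, and a difference of -4.21 with p = 0.0357 without replicate 3). The genes without a position are counted in this number, also those called lower above. Their part in the difference was not tested.

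Because the EmG allele also carries the 890-kb deletion, the effect of the EmG genotype was set against that of the deletion alone. The Igh Δ890/Δ890 libraries and 3 further Igh +/+ libraries have neighbouring experiment numbers, apart from those above, and the labels name no batch. In these 3 Igh +/+ libraries the 6 upstream genes summed to 1.24% to 1.41%, less than the 1.54% to 4.73% of the Igh +/+ libraries above. Each mutant was therefore taken relative to its own Igh +/+ libraries. The relative usage of the 6 upstream genes was 0.351, 0.396 and 0.266 in the Igh Δ890/Δ890 libraries, below the lowest Igh EmG/EmG library with 1.00. The mean of 1.17 ± 0.142 was 3.45 times that of 0.338 ± 0.0663 (SD, n = 3 each), and the difference of 0.829 had the smallest p that 3 against 3 libraries allow (exact permutation test, p = 0.1). Without Igh +/+ replicate 3, the Igh EmG/EmG mean was 1.35. In single genes, the EmG effect differed from the Δ890 effect in 6 of 107 VH genes (limma interaction, 5.61%), all higher in EmG, and 13 genes had an unadjusted p under 0.05. These comprised VH1-83 (2.51 ± 0.33 (SE) on the log2 scale, adjusted p = 6.2e-05), VH1-82 (2.16 ± 0.43, adjusted p = 0.00394) and VH1-84 (1.62 ± 0.40, adjusted p = 0.0185) upstream of the insert. VH1-36 (1.16 ± 0.33) and VH1-39 (1.36 ± 0.39, adjusted p = 0.0444 for both) lie downstream, and VH1S12 has no position (1.36 ± 0.28, adjusted p = 0.00394). VH1-83 was used at 0.0121% to 0.0309% in Igh Δ890/Δ890 and at 0.0771% to 0.107% in its Igh +/+ libraries, whereas the Igh EmG/EmG libraries exceeded theirs. VH1-36, which was lower in Igh EmG/EmG than in Igh +/+, was used at 0.0337% to 0.0366% in Igh Δ890/Δ890 and at 0.137% to 0.212% in its Igh +/+ libraries. Over the 6 upstream genes the median difference of the effects was 1.54, over 10 downstream genes 0.76 and over all genes tested 0.14. Without replicate 3 of the Igh +/+ libraries, 12 genes (11.4%) differed, which included all 6 upstream genes. VH1-83, VH1-82 and VH1S12 were called in each of the 15 fits with 1 library left out. VH1-84 lost its call in 4 of them, those without Igh EmG/EmG replicate 2 or 3, Igh Δ890/Δ890 replicate 3 or replicate 1 of its Igh +/+ libraries (limma, adjusted p = 0.0562 to 0.0908). VH1-36 and VH1-39 lost theirs in 12 and 13 of the 15 fits (limma, adjusted p up to 0.161). VH1-36 was called without Igh +/+ replicate 3 or 5 or replicate 1 of the other Igh +/+ libraries, and VH1-39 without Igh +/+ replicate 3 or Igh Δ890/Δ890 replicate 2. Without Igh EmG/EmG replicate 2 or 3 or Igh Δ890/Δ890 replicate 3, 3 genes were called.

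The differences of the VH12, VH14 and VH15 families had the same direction in the deletion without an insert. VH12, at 1.30 times its Igh +/+ mean in Igh EmG/EmG, was at 1.13 times in Igh Δ890/Δ890, 1.35 times in Igh P4StopG/P4StopG and 1.46 times in Igh P4inv/P4inv. The mean usage of VH15 was 0.490 of its Igh +/+ libraries in Igh EmG/EmG and 0.431 in Igh Δ890/Δ890, and that of VH14 was 0.579 and 0.619. Without Igh +/+ replicate 3, the Igh EmG/EmG values were 0.523 for VH15 and 0.694 for VH14, so that the order of the 2 genotypes for VH14 depended on this library. VH15-2 differed by 0.19 on the log2 scale between the effects of the 2 genotypes, which was not called (limma, adjusted p = 0.908). VH1-47, the gene next to the insert, likewise was used at 0.154% to 0.240% in Igh Δ890/Δ890 and was not called between the effects (0.48, limma, adjusted p = 0.525).

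**Figure D5:**
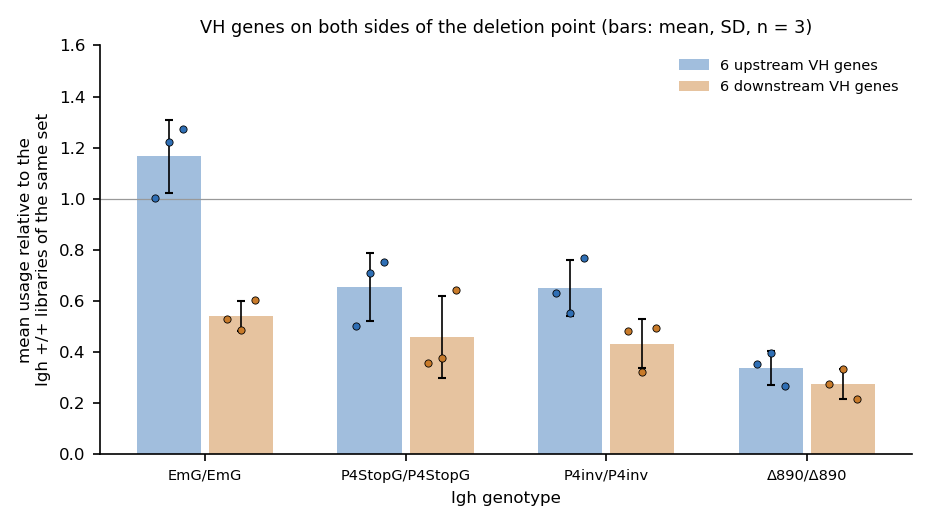
Mean usage of the 6 upstream and the 6 downstream VH genes relative to the Igh +/+ libraries of the same set in 4 genotypes that carry the 890-kb deletion (bars, mean and SD of 3 libraries, points, single libraries). The upstream genes reach 1.17 in Igh EmG/EmG, 0.654 in Igh P4StopG/P4StopG, 0.650 in Igh P4inv/P4inv and 0.338 in Igh Δ890/Δ890, and the downstream genes are below 1 in all 4 genotypes. Without Igh +/+ replicate 3 (not drawn), the upstream genes reach 1.35 in Igh EmG/EmG, 0.776 in Igh P4StopG/P4StopG and 0.784 in Igh P4inv/P4inv.

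The other inserts at the same deletion point have experiment numbers next to those of Igh EmG/EmG and were set against the same Igh +/+ libraries. The relative usage of the 6 upstream genes was 0.501, 0.710 and 0.751 in Igh P4StopG/P4StopG and 0.632, 0.551 and 0.767 in Igh P4inv/P4inv, all below the 3 Igh EmG/EmG libraries. Without Igh +/+ replicate 3, the means were 0.776 in Igh P4StopG/P4StopG, 0.784 in Igh P4inv/P4inv and 1.35 in Igh EmG/EmG. Against Igh P4StopG/P4StopG, 6 of 106 VH genes (5.66%) were higher in Igh EmG/EmG, namely VH1-82, VH1-83, VH1-84, VH1-85, VH1-39 and VH1S12, but 3 were called in a fit of 15 libraries and 0 without Igh EmG/EmG replicate 2 or 3 (limma, with 7 and 9 genes at an unadjusted p under 0.05, and 11 with all 6 libraries). With 1 library left out, VH1-39 lost its call in all 6 fits, VH1-85 and VH1S12 in 4, VH1-84 in 3, and VH1-82 and VH1-83 in 2. Against Igh P4inv/P4inv, 15 of 104 genes were called (14.4%), 8 higher (7.69%) and 7 lower (6.73%) in Igh EmG/EmG. The higher ones included VH1-81 to VH1-84 upstream and VH1-39 and VH1-27 downstream, and the lower ones VH3-6, VH6-3, VH6-6, VH10-1, VH10-3, VH1-12 and VH13-2 of the middle and distal parts. Without Igh EmG/EmG replicate 1 or Igh P4inv/P4inv replicate 2, 8 genes were called, and VH10-3 lost its call in 5 and VH1-81 in 4 of the 6 fits with 1 library left out. Both fits took the spread of a gene from its trend over usage alone, and only 2 genes, VH1-83 and VH1S12, were called against Igh P4inv/P4inv in the fit of 15 libraries.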

How the data were processed

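VDJ-seq was analysed in pro-B cells of 3 Igh EmG/EmG and 6 Igh +/+ mice, 1 mouse per library. Genomic DNA had been sheared, ligated to adapters with unique molecular identifiers, extended from JH primers and sequenced in paired-end mode. The authors removed duplicates and assigned joints to VH genes with a published pipeline. Deposited was, per VH gene, its percent of all unique VDJH and DJH joints of the library. The submitters' processing notes name R 3.3.3. The number of joints per library was not given and was not inferred from the percentages, so that the errors are spreads between mice. Replicate numbers were given in accession order and pair no mice. No column of another sample was used (0).

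Usage was transformed as log2(usage + 0.01) and tested gene by gene with limma 3.58.1 in R 4.3.3 (moderated, with a trend of the prior variance). Tested were the VH genes that were not assigned to the deleted stretch and averaged 0.01% or more. In the comparison with Igh +/+, 22 of them have no position, and whether they lie within the deletion is unknown. P-values were adjusted after Benjamini and Hochberg, with a threshold of 0.05. This scale understates the change of little used genes. Single values per library were compared by exact two-sided permutation tests of the difference of means (scipy 1.17.1). The limma analysis was also run on simulated data. The simulated shifts were larger than the differences of the placed genes, and the noise was independent between genes, unlike that of Igh +/+ replicate 3. It therefore does not show how the test performs on these data. Named were the 6 upstream and 11 downstream VH genes, the most used gene of each family in Igh +/+, and up to 10 further called genes per comparison whose libraries did not overlap. The members, gene lists and tests were chosen with earlier results of these data known. Alternatives concerned the pseudocount, the filter, the scale, the variance model, the Igh +/+ libraries used and each library left out. Positions of VH genes are from the mm10 RefSeq annotation, and sequences are from the mm9 genome.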

Additional observations from a re-analysis of the deposited data

Results flagged for a closer look

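Of 70 values checked in the 6 Igh +/+ libraries, 30 had a highest or lowest library that stood apart by Dixon's criterion, which compares its gap to the nearest library with the range of the 6. Chance flags about 1 in 20 such groups, and values of related genes are not independent. In 28 of the 30, the library was Igh +/+ replicate 3. It held 78.8% VDJH joints, 17.2% in the distal part up to VH1-26, 3.43% on the downstream flank, 4.73% upstream of the deletion and 23.2% in the deleted stretch. Its families VH1 (22.4%), VH6 (2.54%), VH9 (3.35%), VH10 (2.75%) and VH14 (2.48%) and its relative usage of the 6 downstream genes (1.55) were the highest. Among single genes, the same library was highest for VH1-85 (0.458%), VH1-82 (1.33%), VH1-81 (2.05%), VH1-42 (0.411%), VH1-39 (0.999%), VH1-34 (0.713%), VH1-26 (2.96%), VH3-6 (2.39%), VH6-3 (1.46%), VH9-3 (1.70%), VH10-1 (1.47%), VH10-3 (1.25%), VH14-4 (0.916%), VH1-12 (0.529%), VH1S126 (0.0455%) and VH1S40 (0.0524%), and lowest for VH5-2 (1.58%). The other 2 values were the VH5 family in Igh +/+ replicate 4 (6.53%, the lowest) and VH1-32 in Igh +/+ replicate 5 (0.0853%, the highest).

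The effect of the EmG genotype differed from that of the Δ890 genotype in 6 VH genes by the limma interaction test (adjusted p of 0.0444 or lower). The differences on the log2(usage + 0.01) scale were 2.51 for VH1-83, 2.16 for VH1-82, 1.62 for VH1-84, 1.36 for VH1-39, 1.36 for VH1S12 and 1.16 for VH1-36.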

How the results depend on the processing

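The number of called genes between Igh EmG/EmG and Igh +/+ (12) was 6 with a pseudocount of 0.1, 3 among genes of at least 0.1%, 32 as a percentage of all VDJH joints, 27 with only the first 2 Igh +/+ libraries, and 6 to 29 with 1 library left out. Between the EmG and Δ890 effects (6 genes) it was 10 outside the deletion, 3 with a pseudocount of 0.1, 41 without scaling to Igh +/+ and 3 to 12 with 1 library left out. Against Igh P4StopG/P4StopG (6 genes) it was 3 in the fit of 15 libraries and 0 to 7 with 1 library left out, and against Igh P4inv/P4inv (15 genes) 2 and 8 to 15. With 1 library left out, the differences were -19.4 to -12.9 for VDJH joints, -0.491 to -0.385 for the downstream relative usage, 0.818 to 1.07 for the log2 ratio of the flanks and -4.21 to -3.24 for the effective number of genes. They missed 0.05 without any one Igh EmG/EmG library, where the smallest possible p is 0.0714, and with only 2 Igh +/+ libraries (-10.0, -0.372, 1.21 and -3.66), where it is 0.2. Over VH genes outside the deletion, an alternative chosen after seeing the data, VDJH joints differed by -4.48. The upstream relative usage passed 0.05 on the scale outside the deletion (0.331).

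Several small differences changed sign. The middle part was at -1.13 to 0.204 with 1 library left out, 0.952 with 2 Igh +/+ libraries and 1.98 outside the deletion, and the distal part up to VH1-26 at 0.506 with 2 Igh +/+ libraries. With 1 library left out, VH6 was at -0.0595 to 0.286, VH10 at -0.0274 to 0.282 and VH9 at -0.365 to 0.0144. With 2 Igh +/+ libraries VH9 was at 0.168 and VH1 at 0.801, and outside the deletion VH3 was at 0.119, VH4 at 0.0706 and VH7 at 0.00197. On the log2 scale with 1 library left out, VH1-80 was at -0.15 to 0.21, VH1-84 at -0.19 to 0.22, VH1-28 at -0.15 to 0.066, VH1-26 at -0.26 to 0.016, VH5-2 at -0.029 to 0.15 and VH1-32 at -0.39 to 0.052. VH1-80 was at -0.0058 with a pseudocount of 0.1. Outside the deletion, VH1-84 was at 0.12 and VH1-28 at 0.10. As a percentage of all VDJH joints, VH1-84 was at 0.49, VH1-39 at 0.15, VH1-32 at 0.31, VH1-31 at 0.14, VH1-28 at 0.43, VH1-27 at 0.17, VH1-26 at 0.36, VH3-6 at 0.32, VH4-1 at 0.29, VH7-1 at 0.32, VH8-2 at 0.027 and VH9-3 at 0.26. With 2 Igh +/+ libraries, VH1-84 was at 0.38, VH1-26 at 0.23, VH2-2 at -0.012, VH3-6 at 0.11, VH5-2 at -0.12 and VH9-3 at 0.020, and with 9 Igh +/+ libraries VH1-84 was at 0.21. The causes were not tested.

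No paired analysis was possible because the labels carry no replicate numbers that link mice of the groups. Counting error was not assessed, since the number of joints per library was not given, and groups of 3 libraries cannot give an exact p below 0.1 against 3 others.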
